A study of Mus musculus with 3 samples.

Results

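The regions described here are H2AK119ub promoter regions that the deposited annotation gives to several genes at once. They were selected on the name count, location class, width and overlap measured in these lists. A member is a region of replicate 1 in the promoter class, with 2 or more distinct gene names and a width under 20000 bp, that overlaps any region of replicate 2 by at least 1 bp. There were 279 members among the 7838 regions of replicate 1, and replicate 2 had 8093 regions. The regions came from ChIP-seq of ubiquitinated histone H2A in tongue epithelium of newborn mice at postnatal day 0, genotype control, titled non-gustatory by the submitters, with cells sorted on the epithelial surface protein EpCAM after the circumvallate papillae were cut away. The series had 2 H2AK119ub replicates, called biological by the submitters, and 1 input library that was not analysed here. All libraries came from control mice, so no treatment or mutant was compared, and the series title names the role of Polycomb repressive complex 1 (PRC1) in this epithelium. The lists give positions in mm10 with a class and gene names, but no height or read count, and sequencing depth is unknown.

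H2AK119ub is placed on nucleosomes by the ubiquitin ligase of PRC1, and it is typical of repressed developmental genes whose promoters are CpG islands. Neighbouring genes can share a promoter in several ways. In a divergent pair the genes lie head to head on opposite strands and are transcribed away from each other. A coding gene may also be paired with a long noncoding RNA (lncRNA) started nearby in the other direction, may host a microRNA (miRNA), or may lie beside a duplicate of itself, a paralogue. A broad mark cannot be given to one gene of such a pair by position alone.

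Divergent pairs with close starts show what a shared promoter looks like in letters. Below are 5 RefSeq promoters of GRCm38.p6, each 300 bases long, from 250 bases before the start of the named gene to 50 bases from it. Capitals mark the stretch from the start of the partner gene, which is read in the opposite direction, to the start of the named gene. Tmem198, a transmembrane protein gene, shares chr1:75479282-75479581 (plus strand) with Chpf, which helps build chondroitin chains, and their starts lay 61 bp apart. Car7, a carbonic anhydrase, shares chr8:104534450-104534749 (plus strand) with Nae1, a subunit of the NEDD8-activating enzyme, with starts 63 bp apart. Sox8, a transcription factor of the SOX family, shares chr17:25570637-25570936 (minus strand) with the lncRNA 2810468N07Rik at 125 bp. Pcdh10, a protocadherin of cell adhesion, shares chr3:45378148-45378447 (plus strand) with the lncRNA 2610316D01Rik at 138 bp. Tmie, which is needed for hearing, shares chr9:110880024-110880323 (minus strand) with Als2cl at 101 bp.
Tmem198: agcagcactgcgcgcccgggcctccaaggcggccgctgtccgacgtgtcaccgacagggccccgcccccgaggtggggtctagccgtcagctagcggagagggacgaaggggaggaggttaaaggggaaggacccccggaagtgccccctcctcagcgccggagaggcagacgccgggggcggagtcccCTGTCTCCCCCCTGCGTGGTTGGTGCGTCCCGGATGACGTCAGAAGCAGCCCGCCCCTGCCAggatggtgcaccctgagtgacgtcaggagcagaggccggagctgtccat
Car7: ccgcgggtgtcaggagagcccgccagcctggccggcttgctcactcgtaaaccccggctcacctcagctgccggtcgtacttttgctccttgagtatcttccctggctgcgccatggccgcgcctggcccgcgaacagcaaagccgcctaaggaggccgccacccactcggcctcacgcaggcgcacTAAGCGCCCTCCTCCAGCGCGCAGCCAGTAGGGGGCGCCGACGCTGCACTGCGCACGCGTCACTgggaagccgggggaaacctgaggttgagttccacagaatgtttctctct
Sox8: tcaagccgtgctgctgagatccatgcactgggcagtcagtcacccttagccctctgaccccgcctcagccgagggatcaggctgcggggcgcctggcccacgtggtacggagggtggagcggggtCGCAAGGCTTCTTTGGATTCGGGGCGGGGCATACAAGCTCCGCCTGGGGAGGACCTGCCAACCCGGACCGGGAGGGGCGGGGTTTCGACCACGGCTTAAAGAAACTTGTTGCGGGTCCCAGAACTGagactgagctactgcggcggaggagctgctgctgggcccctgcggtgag
Pcdh10: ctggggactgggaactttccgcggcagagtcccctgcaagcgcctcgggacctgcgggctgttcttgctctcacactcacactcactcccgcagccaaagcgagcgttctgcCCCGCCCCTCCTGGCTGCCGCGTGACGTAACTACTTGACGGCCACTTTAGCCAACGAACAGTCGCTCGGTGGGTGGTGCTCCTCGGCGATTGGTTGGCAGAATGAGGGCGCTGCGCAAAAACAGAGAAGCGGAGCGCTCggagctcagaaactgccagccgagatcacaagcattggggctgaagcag
Tmie: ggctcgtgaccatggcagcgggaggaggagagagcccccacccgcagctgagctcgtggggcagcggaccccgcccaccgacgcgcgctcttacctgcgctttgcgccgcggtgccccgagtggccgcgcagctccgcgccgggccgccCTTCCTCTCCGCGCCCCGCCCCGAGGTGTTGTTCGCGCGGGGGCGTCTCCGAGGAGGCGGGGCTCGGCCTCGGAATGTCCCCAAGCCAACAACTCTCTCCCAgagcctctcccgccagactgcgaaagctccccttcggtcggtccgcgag
All 5 windows were rich in CpG, with 26, 28, 21, 24 and 39 CpG dinucleotides in that order. GGGCGG, the GC-box core, was found on either strand in every window but that of Car7. In the Pcdh10 window, CCAAT was found as well.

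Members with miRNAs also had sequences in common. Of 52 distinct miRNA names in the members, 48 had a mature sequence in the RefSeq table. The miRNAs below are among those that share a seed (bases 2 to 8, in capitals) within or between members. Mir34b and Mir449 belong to one seed family but lie in regions on chromosomes 9 and 13, and Mir132 and Mir212 lie in 1 region on chromosome 11.
mmu-miR-34b-5p: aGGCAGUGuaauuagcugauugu
mmu-miR-449a-5p: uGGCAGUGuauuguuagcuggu
mmu-miR-449c-5p: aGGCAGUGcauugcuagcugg
mmu-miR-132-3p: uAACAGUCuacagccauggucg
mmu-miR-212-3p: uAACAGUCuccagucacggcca
mmu-miR-181c-5p: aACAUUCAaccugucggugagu
mmu-miR-181d-5p: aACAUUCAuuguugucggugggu
mmu-let-7b-5p: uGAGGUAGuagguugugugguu
mmu-let-7c-5p: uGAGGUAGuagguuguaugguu
The first 3 share the seed GGCAGUG over 2 regions. The pairs miR-132 with miR-212 (AACAGUC), miR-181c with miR-181d (ACAUUCA) and let-7b with let-7c (GAGGUAG) each share a seed inside 1 region.

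The promoter class held 2701 of the regions of replicate 1, and 499 of them (18.5%) carried 2 or more names. Of these, 153 were 20000 bp wide or more and were left out by the rule. Of the remaining 346 candidates, 279 (80.6%) overlapped replicate 2 and 67 did not. Overlap was a condition of membership, so this share describes the candidates and not the members. Promoter regions with 1 name and the same width limit overlapped replicate 2 in 1338 of 1959 cases (68.3%), and these 1338 served as the background for the members. The widest members were Mdk with Chrm4 at 19.9 kb, Sost with 4930417O22Rik at 19.8 kb and Foxl2 with Foxl2os at 19.7 kb. Just past the limit lay AI606473 with Lhx8 at 20.2 kb, and Skap1 with Gm11529 and Cpne7 with Mir7080, both at 20.3 kb.

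Most members were pairs. There were 242 members with 2 names, 27 with 3 and 10 with 4, and their 605 names came to 598 distinct ones. By the RefSeq gene table, 443 names were protein-coding genes, 98 lncRNAs, 53 miRNAs, 5 transcribed pseudogenes and 2 small nucleolar RNAs, and 4 had no match. Coding genes alone made up 139 members (49.8%), a coding gene with a lncRNA 85 (30.5%), and a coding gene with a miRNA 33 (11.8%). Only noncoding genes were named in 8 members, and the other 14 were mixtures. A noncoding gene was named in 132 members (47.3%, exact 95% interval 41.3 to 53.4%), against 91 of the 1338 regions with 1 name (6.8%). A region with several names has more chances to name one, and this was not adjusted for.

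The names were compared between replicates, since the rule asked only for overlap with any region of replicate 2. A replicate 2 region of the promoter class overlapped 261 of 279 members (93.5%), close to the 91.6% of the regions with 1 name. All names recurred in overlapping promoter regions of replicate 2 for 204 members (73.1%, 67.5 to 78.2%), some names for 54 (19.4%) and none for 21 (7.53%). In 200 members a single region of replicate 2 carried all the names. Counted per name, 503 of 605 recurred (83.1%, 79.9 to 86%), below the 90.9% of the regions with 1 name (89.2 to 92.4%). This difference was not tested. Intervals here are Clopper-Pearson and cover counting error only, and neighbouring genes are not independent of each other.

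Of the 18 members without a promoter-class region in replicate 2, 10 met a distal region and 8 a gene body region. Bhlha9, a basic helix-loop-helix gene, and Tusc5 shared a region of 14.1 kb in replicate 1, and the 4.57 kb region of replicate 2 was distal to Bhlha9. Grpel1, a mitochondrial import factor, and the lncRNA 2210406O10Rik shared 4.86 kb in replicate 1, and the 2.5 kb of replicate 2 lay in the lncRNA's body. For Mirlet7b with Mirlet7c-2 the region of 5.47 kb was met by a distal region of 2.4 kb named for Ppara. In 17 of these 18 members the replicate 2 region was the narrower.

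Widths in replicate 2 were not used by the rule. The median width of members was 10096 bp in replicate 1 and 7902 bp in replicate 2, against 7367 and 6344 bp for regions with 1 name. The member was wider in replicate 1 in 165 of 279 cases (59.1%), as in 58.7% of the background. The median share of bases held in common, as a percentage of those covered in either replicate, was 59.8% in members and 57.6% in the background. The best match was Zeb2, a repressor of the epithelial state, with its antisense partner Zeb2os, at 8.79 kb in replicate 1 and 8.8 kb in replicate 2 with 99.8% in common. This pair was chosen after its values were seen. At the other end, Hoxd1 with the lncRNA Haglr took 13.7 kb in replicate 1 but lay inside a replicate 2 region of 127 kb over the Hoxd cluster, with 9.57% in common.

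**Figure D1:**
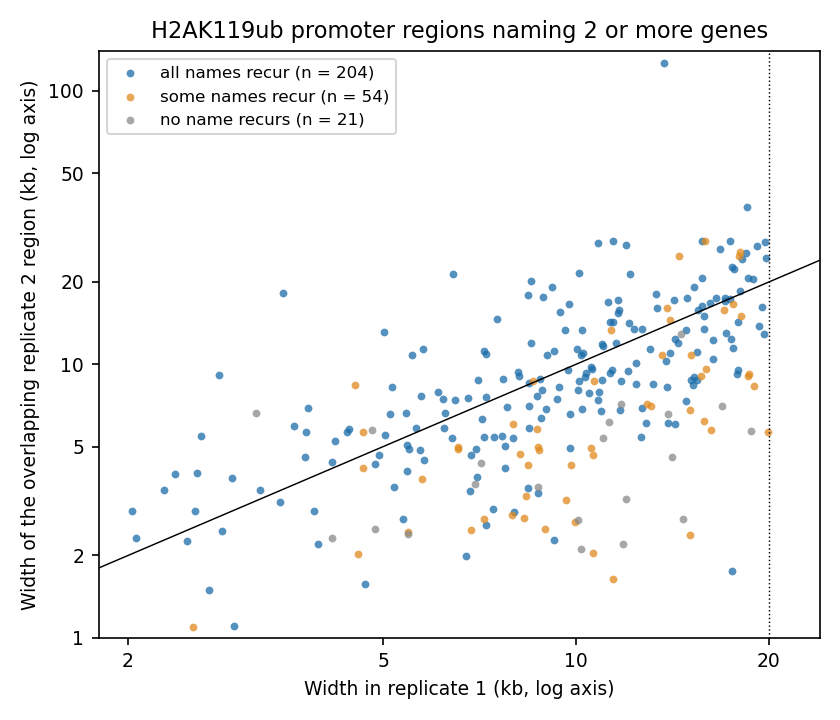
Width in replicate 1 (x axis, kb, log axis) against width of the best overlapping region in replicate 2 (y axis, kb, log axis) for the 279 members, coloured by whether all, some or none of the names recur; the solid line marks equal widths and the dotted line the limit of 20 kb. Members in which no name recurs (grey, 21) mostly lie below the line, and the point far above it is Hoxd1 with Haglr.

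Wider replicate 1 regions met one in replicate 2 more often in both sets. Under 5 kb, 38 of 77 candidates with several names did so (49.4%), and 429 of 774 regions with 1 name (55.4%). From 5 to 10 kb the counts were 98 of 114 (86%) against 441 of 630 (70%). From 10 to 20 kb they were 143 of 155 (92.3%) against 468 of 555 (84.3%). The share of members whose names all recurred was 76.3% (29 of 38, 59.8 to 88.6%) under 5 kb and 70.6% (101 of 143, 62.4 to 77.9%) from 10 to 20 kb, and the intervals overlap.

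Strand and start could be had for both genes of a pair in 180 members. Of these pairs, 73 (40.6%) were divergent, 41 (22.8%) lay on opposite strands and overlapped, 34 (18.9%) lay apart on the same strand, 24 (13.3%) overlapped or were nested on the same strand, and 8 (4.44%) were convergent. In members with more than 2 names the pair with the nearest starts was taken, and for a miRNA the start is the hairpin end. The starts of divergent pairs lay 16 to 21446 bp apart with a median of 1366 bp, and 33 of 73 (45.2%) lay within 1000 bp, a usual bound for a bidirectional promoter. Overlapping opposite-strand pairs had closer starts, with a median of 409 bp. Same-strand pairs that lay apart had a median of 4848 bp and convergent pairs 6696 bp. Shares and distances over all neighbouring genes of the reference were not computed, so these values describe the members alone.

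**Figure D2:**
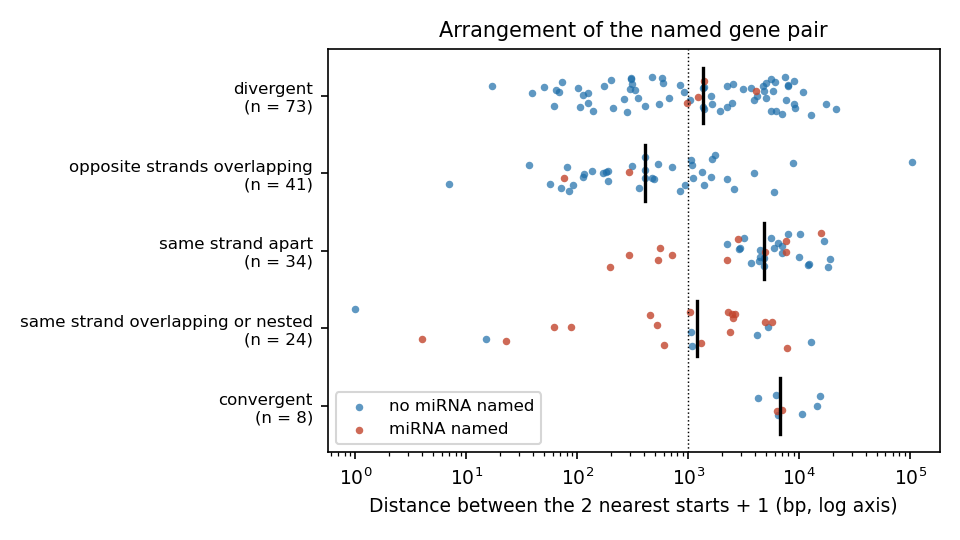
Distance between the nearest starts of the named pair plus 1 (x axis, bp, log axis) for the 180 members with known strands, by arrangement (rows, with n); each point is a member, red where a miRNA is named, black bars are medians and the dotted line marks 1000 bp. Divergent pairs spread to both sides of the dotted line, while convergent pairs all lie beyond it.

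Both names of the pair recurred, whether in 1 replicate 2 region or in several, in 57 of 73 divergent pairs (78.1%, 66.9 to 86.9%), 32 of 41 overlapping opposite-strand pairs (78%, 62.4 to 89.4%) and 21 of 34 same-strand pairs lying apart (61.8%, 43.6 to 77.8%). For nested same-strand pairs the count was 20 of 24 and for convergent pairs 7 of 8. These intervals overlap. By distance, both names recurred in 63 of 74 pairs with starts within 1000 bp (85.1%, 75 to 92.3%) and in 74 of 106 with starts farther apart (69.8%, 60.1 to 78.3%), a difference that was not tested. The closer pairs also had narrower regions, with medians of 8298 against 10555 bp in replicate 1. Under 10 kb the shares were 87.2% (41 of 47) and 74.5% (35 of 47), and from 10 kb they were 81.5% (22 of 27) and 66.1% (39 of 59).

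Among the 32 divergent pairs within 1000 bp that held no miRNA, the region covered both of the nearest starts in 22 (68.8%) in replicate 1 and in both replicates in 17 (53.1%). Tmem198 with Chpf lay under 9.77 kb in replicate 1 and 6.59 kb in replicate 2, and 78.8% of the replicate 1 region was on the Chpf side of the point midway between the starts. The Pcdh10 region was 13.1 kb and 11.4 kb, with 52.8% and 62.8% on the Pcdh10 side. Both regions spanned the paired starts in both replicates.

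The region of Sox8 with 2810468N07Rik was 17.8 kb in replicate 1, with 86% on the Sox8 side. In replicate 2 it was 9.2 kb, with 66.3% there, and another region of that replicate also met it. For Car7 with Nae1, 89.5% of the 10.3 kb of replicate 1 lay on the Car7 side, and the 11 kb of replicate 2 lay wholly there and left out the paired starts. It did hold another annotated Car7 start farther into the gene. The region of Als2cl with Tmie went from 17.5 kb to 1.75 kb, and the replicate 2 region lay wholly on the Tmie side. Receptor phosphatase gene Ptprt and the lncRNA 9430021M05Rik, whose starts lay 16 bp apart, had regions of 7.66 and 5.47 kb that covered both starts in both replicates. Klhl29 with 2810032G03Rik, 38 bp apart, had 11 and 8.75 kb, also over both starts.

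In 10 of these 32 pairs (31.2%), 90% or more of the region lay on the same side of the starts in both replicates, a limit chosen after the values were seen. Zfp277 and Dock4, an activator of Rac signalling, are 263 bp apart, and regions of 7.13 and 6.3 kb lay wholly on the Dock4 side. Sympk, a scaffold of mRNA 3' end processing, and Foxa3, a forkhead factor of the liver, are 838 bp apart. Their regions of 6.98 and 4.88 kb lay on the Foxa3 side, with 0% and 0.389% on that of Sympk. Speg, a kinase gene of striated muscle, and Gm15179 are 282 bp apart, and regions of 5.44 and 4.09 kb lay wholly on the Gm15179 side. The regions of Fbxo2 with Fbxo44 lay on the Fbxo2 side, those of Urod with Hectd3 on the Hectd3 side, those of Chtf18 with Rpusd1 on the Chtf18 side and those of Ddx54 with Rita1 on the Rita1 side. Tbc1d21 with 1700072B07Rik and Grpel1 with 2210406O10Rik had theirs on the lncRNA side, and Nup62cl with Pih1h3b on the Nup62cl side.

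The larger part of the region was on the same side in both replicates in 30 of the 32 pairs and in 64 of all 71 divergent pairs without miRNAs (90.1%). Overlap between the replicates was required of every member and favours this. In the 25 divergent pairs of a coding gene and a lncRNA, the larger part lay on the coding side in 14 in replicate 1 (56%, 34.9 to 75.6%) and 13 in replicate 2 (52%, 31.3 to 72.2%), so either side held it about as often. The median share on the coding side was 52.8% and 55.3%.

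**Figure D3:**
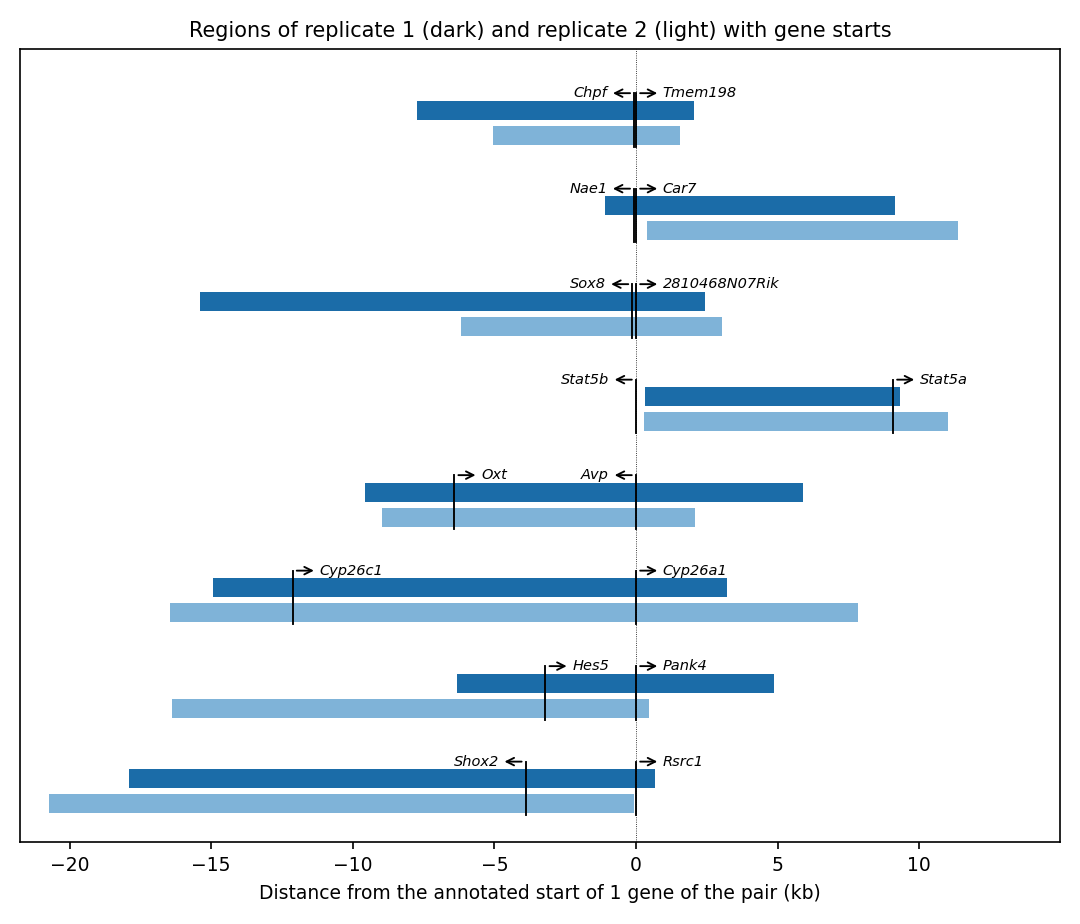
Regions of replicate 1 (dark bars) and replicate 2 (light bars) for 8 members, with the x axis in kb from the annotated start of 1 gene of the pair; black lines are starts and arrows the direction of transcription. The regions of Tmem198 with Chpf and Sox8 with 2810468N07Rik span both starts in both replicates, and that of Car7 with Nae1 does so in replicate 1 alone.

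Coding genes with lncRNAs formed 85 members, and all names recurred in 72 of them (84.7%, 75.3 to 91.6%), against 96 of 139 members with coding genes alone (69.1%, 60.7 to 76.6%). The difference was not tested, and the intervals overlap. Foxl2, a factor of ovary and eyelid development, and Foxl2os have starts 297 bp apart, and their region was 19.7 kb in replicate 1 and 27.9 kb in replicate 2. The retinoic acid synthesis gene Aldh1a2 with Gm3458, 403 bp apart, had 11.6 and 15.4 kb over both starts. Cited1, a transcriptional coregulator gene, with Gm14858, 470 bp apart, had 12.1 and 9.46 kb over both starts. The corepressor gene Tle1 with C630043F03Rik, 351 bp apart, had 8.81 and 6.35 kb, and only the replicate 1 region reached both starts. The linker histone gene H1fx with Gm5577, 201 bp apart, had 4.92 and 4.67 kb, with 95% of bases in common. Tmem200b with Gm12992 overlap on opposite strands with starts 1742 bp apart, and their region was 17.2 and 13 kb.

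Coding genes with miRNAs formed 33 members, and all names recurred in 22 (66.7%, 48.2 to 82%). Of the 24 nested or overlapping same-strand pairs, 17 held a miRNA. The region of 4833427G06Rik with Mir34b and Mir34c was 7.24 kb in replicate 1 and 7.58 kb in replicate 2, with 95.6% in common. The host gene Cdc20b and its Mir449a, Mir449b and Mir449c shared 10.2 and 10.8 kb, with 79.9% in common. Both carriers of the seed GGCAGUG printed above thus had their names in both replicates. Mir132 and Mir212 lay with the tumour suppressor Hic1 and with Ovca2 in regions of 14 and 14.5 kb, and Ovca2 did not recur. Mir375 with Cryba2, a lens crystallin gene, had 15.7 and 28.3 kb. By contrast Mir181c and Mir181d with Nanos3 had 8.74 kb in replicate 1 and met a distal region of 3.55 kb in replicate 2.

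Further nested pairs held well known genes. Insulin-like growth factor gene Igf2 with Mir483 and Igf2os had 12 and 27.4 kb. Dio3os with Mir1247 had 15.5 and 15.8 kb, in a region that also named Dio3, which inactivates thyroid hormone. Dio3 lies on the opposite strand and is not part of the nested pair. The peptide hormone gene Insl3 and the kinase gene Jak3 overlap on the same strand and shared 18 and 18.5 kb with 94.9% in common. The growth factor gene Gdf1 and the ceramide synthase gene Cers1 are annotated from the same start, 0 bp apart, and had 7.44 and 5.41 kb. Hdac5, a histone deacetylase, with Mir8101 had 8.71 and 7.67 kb, and the kinase gene Grk6 with Mir6943 had 8.85 and 8.06 kb. Gm996 with Phpt1, a histidine phosphatase gene, had 8.45 and 8.54 kb with 98.9% in common. Slc25a39 with Mir6930 and Rundc3a went from 17.9 to 9.55 kb, and all its names recurred.

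Convergent pairs were few but had wide regions, whose median over 8 members was 14856 bp in replicate 1 and 11516 bp in the other. Avp and Oxt, the genes of vasopressin and oxytocin, face each other with starts 6419 bp apart, and their region was 15.5 and 11.1 kb over both starts in both replicates. Sost, an inhibitor of Wnt signalling, with 4930417O22Rik had 19.8 and 24.6 kb. Plekhh3 with the gamma-tubulin gene Tubg2 had 15.7 and 16.3 kb and 96.5% in common. Ocel1 with the orphan nuclear receptor gene Nr2f6 had 14.4 and 12 kb, Ltc4s with Mgat4b and Mir6919 had 15.3 and 19.1 kb, and Smim22 with Rogdi had 5.71 and 4.88 kb. All 8 pairs had starts at least 4241 bp apart.

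Overlapping opposite-strand pairs with wide regions included Shox2, a homeobox gene of limb and palate, with Rsrc1, an RNA splicing gene. Their starts lay 3891 bp apart and the region was 18.6 and 20.7 kb. Chrd, a BMP antagonist, with the thrombopoietin gene Thpo had 15.8 and 13.4 kb. At the narrow end, the peroxiredoxin gene Prdx5 with Trmt112 had 2.06 and 2.32 kb with 88.8% in common. Dst, which encodes an anchor of keratin filaments, and Bend6 shared 10.5 and 9.76 kb. The region lay at the start of Bend6 and held no Dst start of the promoter table in either replicate. The nearest such start of Dst was 103828 bp from that of Bend6. The annotated spans of the 2 genes overlap, so this distance does not show that the region lay far from Dst.

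Divergent pairs with starts over 1000 bp apart ranged in width, and the narrow end held Tbc1d10b with the muscle myosin light chain gene Mylpf at 2.28 and 3.48 kb. At the wide end, Nfkbie, an inhibitor of NF-kappa-B, with Tmem151b had starts 6023 bp apart and regions of 16.8 and 26.3 kb. Socs3, a suppressor of cytokine signalling, with Pgs1 had starts 17491 bp apart and regions of 15.9 and 28.2 kb, and Socs3 alone recurred. Ltbp3, which binds latent TGF-beta, with Sssca1 had 18.1 and 25.7 kb, and Ltbp3 alone recurred. Plppr3 with the neutrophil protease genes Prtn3 and Elane had 17.4 and 17.3 kb, and all 3 names recurred. Cacng6 with 3300002P13Rik and Gm23450 had 16.5 and 17.4 kb with 92.5% in common. Among close pairs, Duox2, which makes hydrogen peroxide, and its maturation factor Duoxa2 are 673 bp apart and had 16.3 and 12.3 kb over both starts.

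Same-strand pairs lying apart included the vitamin A pathway pair Cyp26a1 and Cyp26c1, which degrade retinoic acid. Their starts are 12128 bp apart, and the region was 18.2 kb in replicate 1 and 24.3 kb in replicate 2. Gsc2, a goosecoid homeobox gene, with Dgcr14 had 9.71 and 9.54 kb with 98.3% in common. Pgls with Fam129c had 17.5 and 22.6 kb, and Atp5d with Midn had 4.85 and 4.3 kb. Gm13271, Gm13286 and Gm13283 had 10.6 and 9.6 kb. Selenon with Mir6403 had 17.9 and 24.8 kb, and Selenon alone recurred.

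Paralogues were rare by symbol: 9 members (3.23%, 1.49 to 6.04%) named 2 genes with the same symbol root, leaving out noncoding RNAs, and all names recurred in 5. In 8 of the 9 both genes were coding by the reference, and in the other, Lgals6 with Lgals4, Lgals6 had no match there. Stat5a and Stat5b, which transmit cytokine and growth hormone signals, are divergent with starts 9075 bp apart, and their regions of 9 and 10.8 kb held 83.5% in common. The region covered the intergenic stretch and stopped short of the Stat5b start. Fbxo2 and Fbxo44, F-box genes of ubiquitin ligases, had 9.75 and 16.6 kb, and Lgals4 and Lgals6, of the galectin family, had 8.11 and 9.36 kb. Cyp26a1 with Cyp26c1, above, is another of the 5. The last of the 5, Hmga1 with Hmga1b, had 9.24 and 2.28 kb, but both names stand for 1 gene in the reference.

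The other 4 lost names in replicate 2. The glutathione transferase genes Gstp1 and Gstp2 had 8.41 and 4.3 kb, and Gstp1 recurred. The myosin light chain genes Myl6 and Myl6b had 2.52 and 1.09 kb, and Myl6 recurred. Tmc6 and Tmc8, whose loss predisposes to papillomavirus skin disease, had 14.6 and 12.9 kb, with 20.5% in common and neither name kept. Il11 with Tmem190 and Tmem238 had 15.1 and 6.8 kb and lost Tmem238, and Tmem is a placeholder for transmembrane proteins and not a family. Relatives under other symbols were named after values were seen. They include H2-Q8 with H2-Q6 (11.4 kb) and H2-Q9 with H2-Q7 (17.4 kb), neighbouring regions of class I histocompatibility genes that both fell in 1 replicate 2 region of 28.2 kb. The gut peptide genes Ppy and Pyy had 12.1 and 14.2 kb, the complement genes C1qc and C1qa 8.97 and 6.88 kb, and the small heat shock genes Cryab and Hspb2 3.95 and 2.21 kb. Near-identical copies can share reads, so a region at one copy is uncertain.

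There were 10 members with 4 names. Fgf11 with G630025P09Rik, the muscle acetylcholine receptor gene Chrnb1 and Tmem102 had 11.5 and 11.9 kb with 94.4% in common. Pnpla2, a triglyceride lipase gene, with Cd151, Gm10575 and Cracr2b had 11 and 11.7 kb with 94.3% in common. Ppp1r16a with Kifc2, Foxh1 and Cyhr1 had 10.2 and 13.4 kb, Sco2 with Klhdc7b, Tymp and Odf3b had 11.4 and 9.54 kb, and Tomm6os with Prickle4, Frs3 and Tomm6 had 5.16 and 8.26 kb. With the Cdc20b region, these 6 kept all 4 names. The telomere gene Acd with Pard6a, Enkd1 and 4933405L10Rik had 4.65 and 4.17 kb and kept Acd and Pard6a. Trim17 with Hist3h2bb-ps, Gm12260 and Hist3h2a had 10.6 and 4.92 kb and lost Hist3h2bb-ps and Hist3h2a. The Hic1 region, above, lost 1 of its 4 names.

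Genes of developmental regulator families, by symbol, were named in 22 members (7.89%, 5.01 to 11.7%), against 5.9% of regions with 1 name. Per coding name the shares were 5.02% (22 of 438) in members and 6.25% (75 of 1200) in regions with 1 name, against 1.93% of coding genes in the reference. All names recurred in 18 of the 22, and the median widths were 11616 bp and 12668 bp in replicates 1 and 2, against 9788 and 7496 bp for the other members. There were 10 homeobox genes, namely Cdx1, Gsc2, Hoxd1, Meis2, Nkx1-2, Nkx2-6, Sebox, Shox2, Zeb2 and Zfhx4. The other transcription factors were Foxa3, Foxh1, Foxl2, Sox8, Bhlha9 and Hes5.

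The ligands were Fgf8, Fgf11, Fgf17, Amh, Gdf1 and Shh. Members named no Pax, Gata, T-box, Zic or Wnt gene. The regions with 1 name held few of them too, with 0, 0, 3, 1 and 3 names in that order. Regions of 20000 bp or more were left out by the rule, so the absence is not a trait of shared promoters. Hes5, a target of Notch, with Pank4, of the pantothenate kinase family, had 11.2 and 16.9 kb, extended toward Hes5 and beyond in replicate 2. Fgf8, a growth factor of limb and face, with 4933429K18Rik and Npm3 had 18.9 and 20.5 kb. The homeobox gene Nkx2-6 with 1700092C10Rik had 11.3 and 14.2 kb, and Zfhx4 with 2700069I18Rik had 11.7 and 15.8 kb. Jsrp1 with Amh, the anti-Müllerian hormone gene, had 8.5 and 12 kb. In 3 members the regulator itself did not recur, Bhlha9 (above), Fgf17 and Sebox. Dmtn with Fgf17 went from 15 to 2.38 kb and kept Dmtn, and Sebox with Sarm1 and Vtn went from 11.4 to 1.64 kb and kept Sarm1. Partners of the regulators were coding in 18 of 29 cases and lncRNAs in 11.

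A list of a repressive mark does not show which genes are expressed, so the labelled tissue could not be checked by it. Members named 1 of 9 basal keratinocyte markers (Dst, but not Krt5, Krt14 or Trp63). They also named 1 of 10 differentiated keratinocyte markers (Ovol1) and 1 of 8 taste markers (Shh). The Dst region held no Dst start of the promoter table in either replicate. Of markers of other tissues, members named 2 of 7 for muscle and 2 of 6 for neurons. They named none of the lists for Merkel cells, fibroblasts, glia and melanocytes, endothelium or immune cells. Markers in regions with 1 name or of 20000 bp or more are not counted here. The share over all genes was not computed, so these small counts and absences are not a result about the mark. Shh, the signal of the developing taste papilla, and 9530036O11Rik had 19.1 and 27 kb. Ovol1, a factor of epidermal differentiation, with Ap5b1 went from 18.6 to 9.22 kb and kept Ovol1. The fast muscle troponin gene Tnni2 with Syt8 had 8.9 and 17.6 kb, and Tnnt3 with Prr33 had 17.6 and 16.6 kb and kept Prr33. The neuronal tubulin gene Tubb3 with the melanocortin receptor gene Mc1r had 9.34 and 7.49 kb, and the neurofilament gene Nefm with A230070E04Rik had 10.3 and 8.95 kb. The part of contaminating cells in these regions was not tested.

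Names that did not recur nearly all belonged to genes whose start lay outside the replicate 2 region. Of 65 lost names with a known start (miRNAs left out), 26 (40%) had it inside the replicate 1 region and 1 (1.54%) inside a replicate 2 region. Of 348 recurring names, 238 (68.4%) and 230 (66.1%) did. The rule that gave the names is not stated in the sources used here. If names follow distance to a gene, a link between the position of the region and the name is built into the annotation. Starts of recurring names lay a median of 2544 bp from the middle of the replicate 1 region, and those of lost names 4374 bp. In 25 members at least 1 kept and 1 lost gene had a known start, and the nearest kept gene lay closer to the middle than the nearest lost gene in 22 (88%, 68.8 to 97.5%). For Tcam1 with the chromatin remodelling gene Smarcd2, the kept Tcam1 lay 230 bp from the middle and Smarcd2 9320 bp. In Asic1 with Smarcd1 the kept ion channel gene Asic1 lay at 2119 bp and Smarcd1 at 7944 bp. Both these pairs were chosen after their values were seen.

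Shared naming did not mean that a region lay over both starts. Over 146 arranged pairs without miRNAs, both starts lay inside the replicate 1 region in 73 (50%), 1 start in 43 (29.5%) and neither in 30 (20.5%). In replicate 2 the counts were 60 (41.1%), 42 (28.8%) and 44 (30.1%). These counts take the 2 nearest starts of each pair in a promoter table that lacks many genes. A region may therefore hold another start of a named gene, as for Car7 in replicate 2. Regions were not always distinct from each other. Of 299 replicate 2 regions that overlapped members, 4 overlapped 2 members, and 23 members met 2 or more replicate 2 regions. Npcd with Cbx6, a Polycomb gene, was named by 2 members of 15.4 and 7.03 kb, both met by the same region of 8.78 kb in replicate 2.

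The promoters of the members were compared in letters with those of regions with 1 name and with all 32851 promoters of the table. The ratio of CpG observed to that expected from the base content had a median of 0.64 over 264 promoters of members, 0.68 over 660 promoters of regions with 1 name and 0.38 over the whole table. Island-like promoters (ratio over 0.6 and GC content over 50%) made up 53%, 57% and 33.3% in that order. Members thus lay near regions with 1 name in this measure, and both lay above the table. Among members, divergent pairs with starts within 250 bp had a median of 0.81 over 30 windows, of which 90% were island-like. Divergent pairs with starts over 1000 bp apart had 0.55 over 51 windows, of which 43.1% were island-like. Windows of close pairs overlap each other, so they are not independent. Close divergent pairs outside the members were not measured, so the values of close pairs cannot be called particular to members.

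Motifs were searched on both strands in the same windows. GGGCGG was found in 57.2% of members' promoters, 62% of those of regions with 1 name and 35.7% of the table. CCAAT was found in 34.8%, 32.4% and 37.4%, and TATAAA in 10.6%, 9.55% and 13.6%. CCGGAAG, the core of an ETS site, was found in 5.68%, 5% and 8.86%, and the palindrome of the factor NRF1 in 0%, 0.758% and 0.971%. No motif holds the letters of another, though 2 matches may share bases in a GC-rich run. In the divergent windows within 250 bp, GGGCGG was found in 80% and TATAAA in 0%. A match in these letters does not show that a factor binds.

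**Figure D4:**
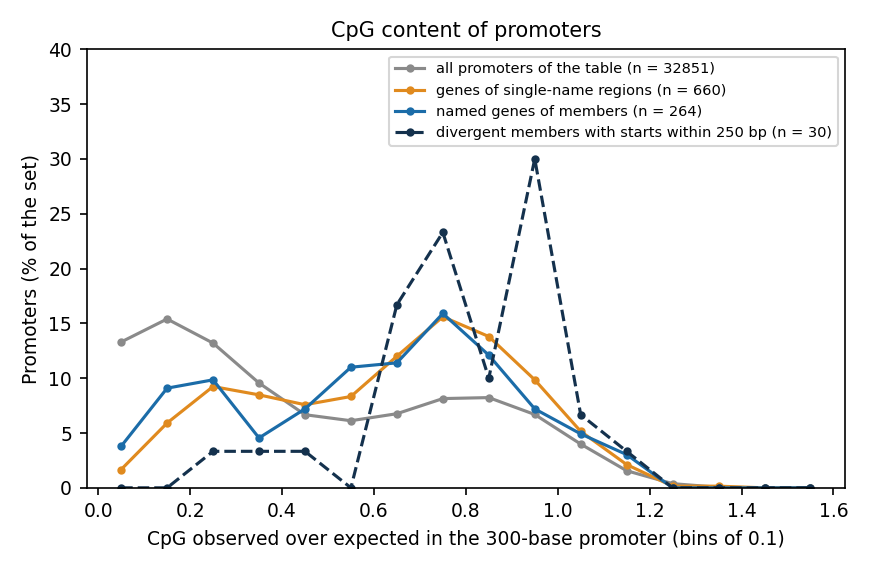
Share of promoters (y axis, percent of each set) by CpG observed over expected in the 300-base promoter (x axis, bins of 0.1) for the whole table (n = 32851), genes of regions with 1 name (n = 660), named genes of members (n = 264) and divergent members with starts within 250 bp (n = 30, dashed). Members follow the regions with 1 name, and the dashed line lies mostly above 0.6.

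Of 17 well known divergent pairs, most of them housekeeping or collagen genes, 2 (11.8%, 1.46 to 36.4%) were named together in promoter regions of both replicates, Zic1 with Zic4 and Zic2 with Zic5. Both lay in regions of 20 kb or more, so none of the 17 was a member. Tap1 with Psmb9, of antigen processing, was named in replicate 1 alone. Pairs such as Atm with Npat, Brca1 with Nbr1 and Hspd1 with Hspe1 were named in neither replicate. The share over all divergent pairs of the genome was not computed, so these counts do not set the 17 pairs apart from other genes. Members lay on every chromosome in the lists, most often on chromosome 11 with 36 (12.9%), which held 9.34% of the regions with 1 name.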

How the data were processed

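Each replicate has its own region list, so regions were called per sample. Per the file headers, the authors' values are of another kind than counts or scores: mm10 coordinates, a location class and gene names, with no height. The submitters' processing notes name Bowtie2 2.3.3 with SAMtools 0.1.19 and state no role. For the peak caller and its settings, how the input entered, and what distance makes a promoter, the answer is not given in the sources used here.

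Members and lists were chosen with earlier results of these data known. Width is end minus start. Where several replicate 2 regions met a member, the one with the largest overlap gave its width. Starts, strands and promoter letters came from a RefSeq promoter table of GRCm38.p6, which lacks many genes and all of 1 chromosome, and biotypes from a RefSeq gene table. Of 605 names, 601 matched. Proteins were not used, so paralogues were taken by symbol root alone. The named members, by rule, were all with 4 names, the 4 with the highest overlap and the 4 widest per arrangement, and all with listed markers, textbook pairs or paralogues (57 members). Other members were named after their values were seen. Not every member that the rule selects is reported here. No test over regions was run, since regions are not replicates. Shares have exact 95% binomial intervals. Scripts ran in Python 3.11.15 (pandas 2.3.3, numpy 2.4.6, scipy 1.17.1, figures in matplotlib 3.10.9) and were tested on simulated lists. Alternatives left out each replicate, swapped them, or changed the overlap, width, distance, promoter and gene choices.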

Additional observations from a re-analysis of the deposited data

How the results depend on the processing

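Leaving out 1 replicate at a time (no overlap asked) gave 346 to 355 regions, and the median width in replicate 1 was then 8920 bp, in the only such setting that gives one. With at least 50% of both regions in common, 188 members were left, 96.8% met a promoter-class region, all names recurred in 85.6%, and the median width in replicate 2 was 8768 bp. With no width limit there were 427 members, with medians of 14595 and 11388 bp in replicates 1 and 2, and 6.09% named a paralogous pair and 17.8% a developmental regulator. A limit of 10000 bp gave 136 members. Within 2000 bp, 58.9% of divergent pairs had close starts. Without miRNAs, an alternative chosen after seeing the data, 48.3% of pairs were divergent and 4.7% nested on the same strand. The regulator shares under other overlap and width limits were added then too. Settings of replicate, overlap and width admit other regions. The 2000 bp setting counts the same 73 divergent pairs at a longer distance, and the setting without miRNAs forms the pairs anew. The other results stayed within their intervals, or within 1.5 times for counts, under the alternatives run for them. No paired analysis was possible because the 2 replicates form 1 group and no test was run. The lists give presence only, so a region missing from 1 replicate may be below the caller's limit there.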
